A study of Mus musculus with 8 samples.

Results

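The 34 interferon response genes described here were a fixed list of symbols, and their members were every spot that carries one of those gene names on the array. All 34 genes were found, with 51 spots and 45 different probes on each array, among 34834 gene names. The list holds the 2-5A synthetase family (Oasl1, Oasl2, Oas1a, Oas2, Oas3), the IFIT proteins, the ISG15 system (Isg15, Usp18, Trim25), transcription factors (Irf1, Irf7, Irf9, Stat2), antiviral GTPases (Mx1, Mx2, Gbp2, Gbp3), sensors of foreign RNA (Ifih1, Ddx58, Dhx58, Eif2ak2), the PARP9 group (Parp9, Parp14, Dtx3l), membrane restriction factors (Bst2, Ifitm3), other effectors (Rsad2, Ifi35, Xaf1, Ifi27), the chemokine Cxcl10 and the feedback inhibitor Socs1. The genes were measured in B16 cells, a pigmented mouse melanoma line grown with serum, with 2 arrays for each of 4 groups: control at 0 h (a non targeted control by its label), cells exposed to SEMA3E for either 2 h or 8 h, and cells given cytochalasin D for 8 h. The ligand SEMA3E, a semaphorin that cells release, and its receptor plexin D1 are the pair named in the study's title, whereas cytochalasin D blocks actin filament growth. The labels describe the 2 arrays of a group as biological replicates and give no control at 2 h or 8 h, so time in culture and treatment cannot be told apart in any comparison with control. Each array held RNA of a bulk culture, so a change in RNA per cell and a change in the share of cells that hold the RNA cannot be told apart.

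Type I interferon binds a receptor made of Ifnar1 and Ifnar2, whose kinases Jak1 and Tyk2 phosphorylate Stat2. Stat2 and Irf9 are parts of a complex, ISGF3, that binds the interferon-stimulated response element in the promoters of its targets, while Irf1 takes part in the response to interferon gamma. Most genes of the list are targets of this pathway, several of them, such as Stat2, Irf9 and Irf7, are also parts of it, and Usp18 and Socs1 damp it.

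The promoters are shown because the response element is the feature by which the pathway reaches its targets, and the rule that set the list did not use it. RefSeq promoters of mouse build GRCm38.p6, each 250 bases before to 50 bases after a start site, were at hand for 26 of the 34 genes. The core motif, TTTC and TTTC with 2 bases of any kind between them (on the opposite strand GAAA and GAAA, spaced alike), stood in the promoter of 16 of these 26 genes (61.5%), against 3.99% of the 27025 symbols in the whole table. In 12 of the 16 at least 1 copy lay before the start site, and the stretches of 8 of these genes follow 5′ to 3′ on the strand of the gene, with the motif in capitals (overlapping copies run together).
Isg15 (chr4:156200850-156200921, minus strand): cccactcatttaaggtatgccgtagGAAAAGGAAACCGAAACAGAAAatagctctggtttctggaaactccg
Ifit3 (chr19:34583348-34583441, plus strand): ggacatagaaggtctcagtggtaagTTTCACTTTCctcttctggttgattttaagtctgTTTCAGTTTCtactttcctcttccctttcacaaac
Gbp2 (chr3:142620579-142620638, plus strand): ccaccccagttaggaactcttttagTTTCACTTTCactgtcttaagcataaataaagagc
Gbp3 (chr3:142559974-142560039, plus strand): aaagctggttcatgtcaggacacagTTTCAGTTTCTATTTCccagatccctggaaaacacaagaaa
Stat2 (chr10:128270251-128270310, plus strand): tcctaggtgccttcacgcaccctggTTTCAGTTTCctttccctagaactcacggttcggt
Rsad2 (chr12:26456538-26456597, minus strand): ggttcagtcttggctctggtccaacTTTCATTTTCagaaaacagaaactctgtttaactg
Cxcl10 (chr5:92349068-92349127, minus strand): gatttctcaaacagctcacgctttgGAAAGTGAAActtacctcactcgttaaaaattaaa
Socs1 (chr16:10785579-10785644, minus strand): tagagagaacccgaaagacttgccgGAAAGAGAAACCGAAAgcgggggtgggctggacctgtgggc

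In these stretches Isg15 held 3 overlapping copies within 78 bases of its start, Gbp3 and Socs1 held 2 overlapping copies each, and Ifit3 held 2 separate ones. Gbp2 held 1 copy 59 bases before its start, Rsad2 1 copy at 120 bases, Cxcl10 1 copy at 213 bases and Stat2 1 copy at 222 bases. The letters of the motif were not found in the promoter windows of Oasl1, Oasl2, Xaf1, Irf1, Irf7, Irf9, Trim25, Ifi35, Dtx3l and Ifit2. No promoter of Mx1, Mx2, Oas2, Parp9, Parp14, Dhx58, Usp18 or Ifi27 was used here. The median difference from control, over the 14 tested members with the motif and the 9 without it, was -0.04 and 0.07 log2 units at 2 h of SEMA3E, 0.17 and 0.13 at 8 h, and 0.11 and 0.07 with cytochalasin D. It was -0.08 and 0.12 between cytochalasin D and SEMA3E at 8 h, and 0.14 and 0.23 between 8 h and 2 h of SEMA3E, so that neither set lay higher throughout.

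Of the 34 genes, 31 had a probe that could be tested, which required that the scanner marked the signal as well above background on each array of 1 group or more. 27 were above background on all 8 arrays. The other 3 were not tested. Ifit1, which binds foreign RNA caps, was above background on 1 array only (SEMA3E 8 h replicate 1), Oas3 on 2 (control replicate 1 and cytochalasin D replicate 1), and Irf7, the factor that amplifies interferon production, on 0 arrays. Oasl1 and Oas2 were above background on 7 arrays, Ifit3 on 7 and Oasl2 on 4. Because a gene could pass through the group where it was bright, counts over the tested members describe these 31 genes and not the whole list.

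Several genes had more than 1 detected probe, and for 4 of them a second probe also passed the filter, so that the gene's value rested on which probe was used. The first 30 of the 60 bases of both probes are shown for 3 of these genes, beside the probes of Oasl1 and Mx2, the genes with the smallest p in a comparison with control.
Oasl1: aaggtaggaggggatcaagttcctttcaaa
Mx2: aagagaaagaggctctcaaagctcagcaag
Isg15, used probe: ggaccagtgtgcctaaggcccccatccaga
Isg15, second probe: tgtagacacgcttaagaagaaggtgtccag
Oas1a, used probe: tgtccacctgttggaaggttctgtctgaca
Oas1a, second probe: tgatgtgtgggtatggtacccatgttttat
Trim25, used probe: accatctcagtttttcacacgtgtgtgttt
Trim25, second probe: gagacccatctagaccttgccctgtttgtg

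For Isg15, the ubiquitin-like modifier, the difference of SEMA3E at 8 h from control was 0.29 ± 0.55 (log2 ± SE) by the used probe, while the second was above background only on the 2 arrays of SEMA3E at 8 h, through which it passed the filter, and gives no measured difference. For Oas1a, a 2-5A synthetase, the same difference was 0.23 ± 0.27 by the used probe and 0.93 ± 0.39 by the second. For Trim25, a ubiquitin ligase that acts on the sensor encoded by Ddx58, it was -0.31 ± 0.27 by the used probe and 0.48 ± 0.30 by the second, and for the chemokine Cxcl10 it was -0.28 ± 0.31 and 0.91 ± 0.76. The probes of Trim25 and of Cxcl10 thus lay on opposite sides of 0, and those of Oas1a on the same side. The second probes of Trim25 and Cxcl10 were near background, above it on 7 and 5 arrays. Both control arrays and both arrays of SEMA3E at 8 h were among these. Their signals before scaling ran from 8.60 to 31.5 and from 2.69 to 29.5. Those of the used probes ran from 12098 to 28090 and from 2735 to 9005. The cause of the opposite signs was not tested. The near-identical copies of Oas1a (Oas1g, above background on 0 arrays) and of Ifit3 (Ifit3b) may share signal with these probes, which was not tested.

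Levels below are log2 signals relative to the 75th percentile of the probes above background on all 8 arrays of the same array, so that a value of 0 is that percentile and a difference of 1 is 2-fold. A level is read between arrays for 1 gene and not between genes. Differences are from limma fitted to all 8 arrays, given as log2 ± SE, with Benjamini-Hochberg adjustment over all 18073 genes tested, and a gene was called at an adjusted p under 0.05, two-sided. The 75th percentile of the raw signal ran from 59.3 to 154 over the arrays and was lowest on the arrays of SEMA3E at 2 h, and the signal of negative controls was 41.6 on SEMA3E 8 h replicate 2 against 17.9 to 22.2 on the other 7. All 9 melanocyte markers were above background on all arrays. All arrays lay on 1 slide, with the groups in neighbouring positions, so position and group cannot be told apart.

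A single array stood apart in a way that reached this gene list. On SEMA3E 2 h replicate 2, a patch in the middle of the array had low signal: 62 of 671 blocks of spots (9.24%) lay more than 0.5 log2 units below the median over arrays, against 0 blocks on each of the other 7 arrays. The median deviation of the spots in the patch was -1.38 log2 units, against 0.19 elsewhere on that array. The spots of 7 members fell in the patch, and for 6 of them (Oasl1, Parp9, Ifit3, Rsad2, Isg15 and Irf9) it was the probe that was tested. For Irf1 it was a second probe that was above background on 0 arrays. The spots of Stat2, Mx1 and Mx2 lay on raised parts of the same array, with block medians of 0.70, 0.67 and 0.54 log2 units. That array also had 214 spots marked as outliers against 6 to 24 on the others, and a spike-in coefficient of variation of 22.2% against 5.48% to 12.3%. Between the 2 replicates of SEMA3E at 2 h, 8 of the 31 tested members (25.8%) differed by more than 2-fold, against 14.1% of all genes tested. The differences of members named in the comparisons of SEMA3E at 2 h with control or with 8 h are therefore also given with the patch set to missing on that array or without the array. The values at 2 h of Oas1a, Oas2, Usp18, Bst2, Ifitm3, Ifi35 and the other pathway genes are not. For the 6 genes whose tested probe lay in the patch, setting it to missing leaves replicate 1 as the only array of that group.

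**Figure D1:**
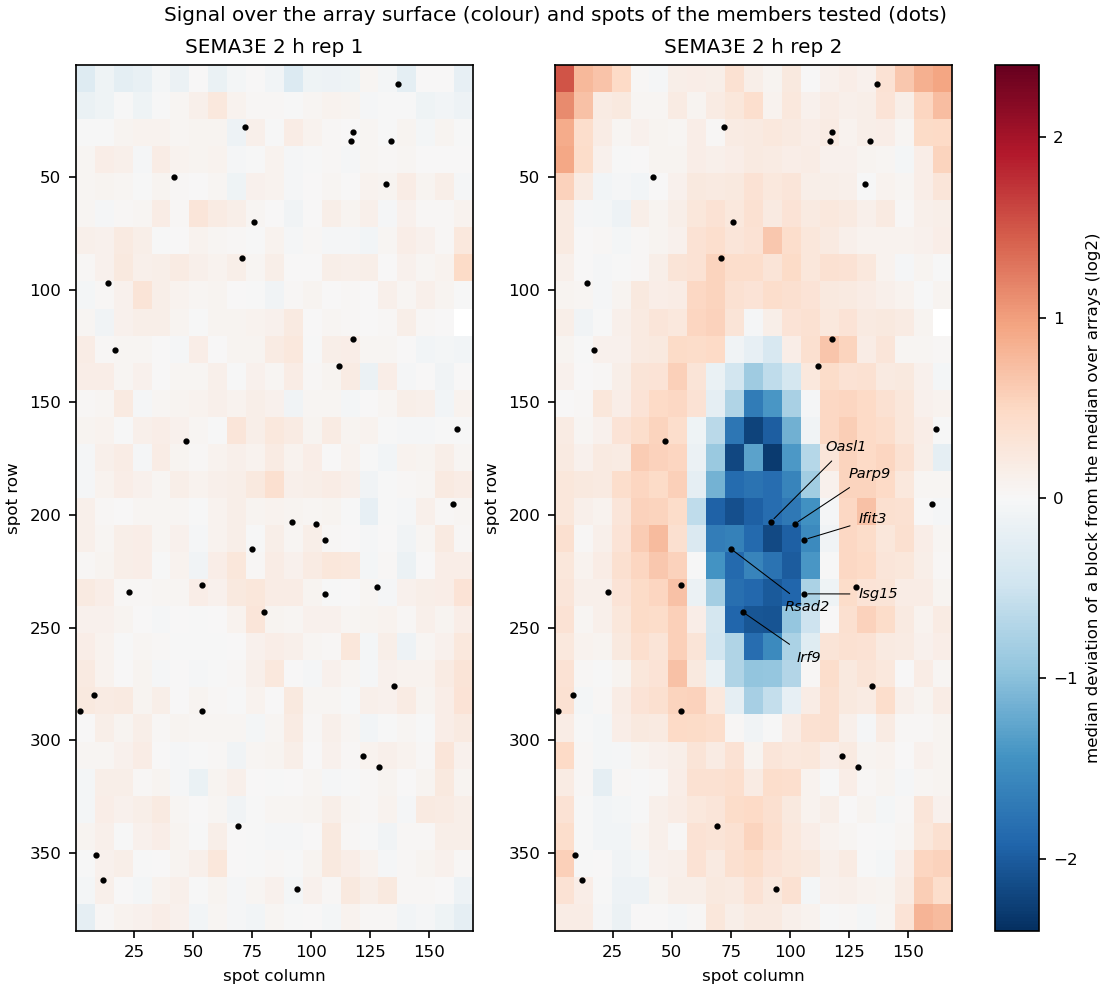
Signal over the surface of the 2 arrays of SEMA3E at 2 h, by spot row and spot column, with colour for the median deviation of a block of spots from the median over the 8 arrays (log2) and dots for the spots of the 31 tested members. Replicate 2 shows a central patch down to -2.31 log2 units that holds the spots of Oasl1, Parp9, Ifit3, Rsad2, Isg15 and Irf9, while replicate 1 shows no such patch.

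**Figure D2:**
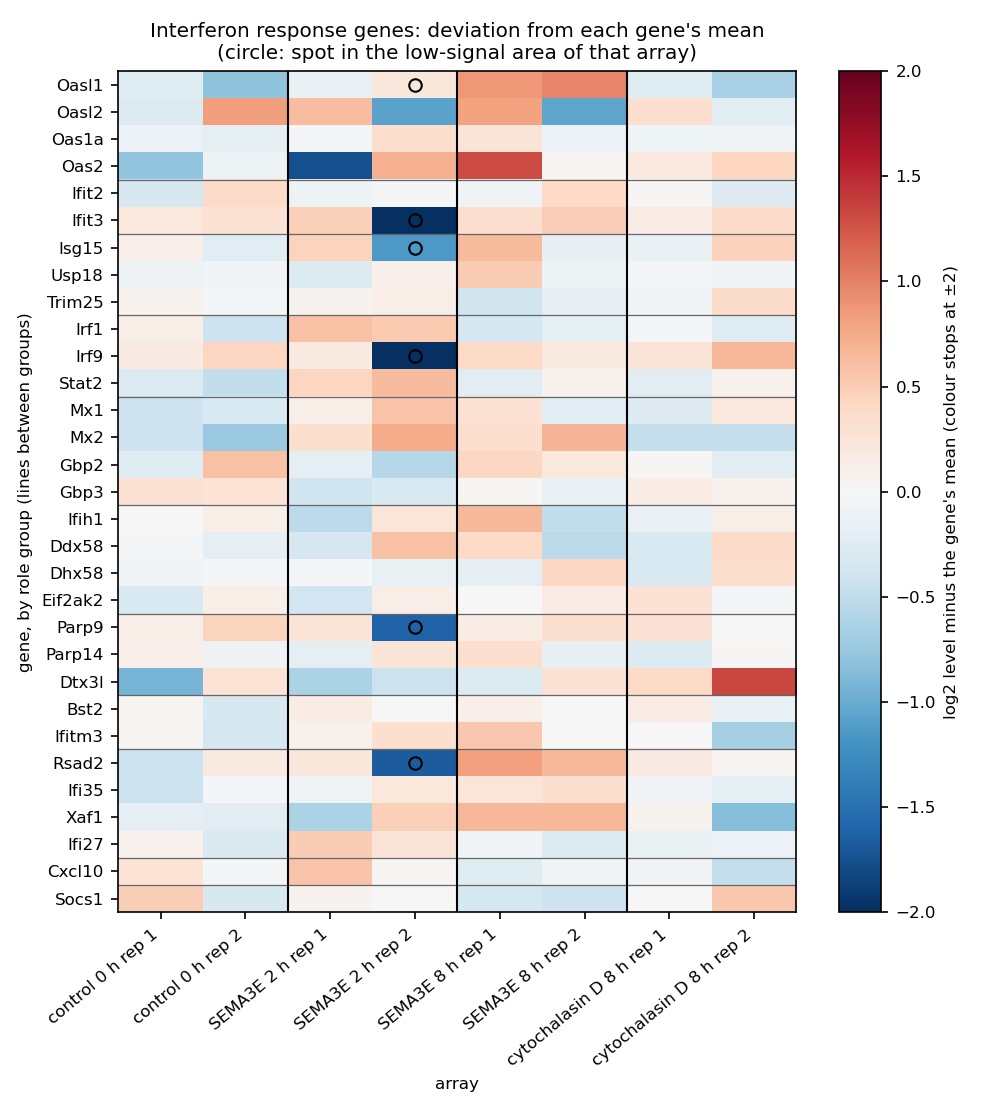
Level of each of the 31 tested members on each of the 8 arrays as the log2 deviation from the gene's mean over the arrays, in role groups separated by lines, with vertical lines between treatment groups. Circles mark the 6 genes whose spot lay in the low patch of SEMA3E 2 h replicate 2, and 5 of these cells are the lowest of their gene.

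SEMA3E at 8 h was compared with control first. The genes with the largest positive differences were Oasl1, Oas2, Mx2, Xaf1 and Rsad2, and those with negative differences included Socs1, Gbp3, Trim25 and Cxcl10. No member passed the test: 0 of 31 were called, with 0.00553% of all genes called (1 gene), while 2 members had an unadjusted p under 0.05, both higher (6.45% of members against 5.38% of all genes) and 0 lower (against 0.753%). 22 members lay above 0 and 9 below, with a median difference of 0.17 log2 units against 0.12 over all genes tested. This split depended on the scaling: 14 of 31 lay above 0 after quantile normalization, 13 with the percentile taken over all probes, 26 after the normexp background correction and 1 with the median of all probes as scale. The median difference over all genes tested was -0.041, -0.095, 0.12 and -1.04 in these settings, in that order. Both SEMA3E arrays lay above both control arrays for 10 members (32.3%, against 25.1% of all genes) and below them for 4 (12.9%, against 12.3%).

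Oasl1, whose mouse product holds back translation of Irf7 RNA, had levels of -6.79 and -7.36 on the control arrays, -6.68 and -6.32 after 2 h of SEMA3E, -5.69 and -5.57 after 8 h of SEMA3E, and -6.79 and -7.20 after cytochalasin D. The 2 arrays of SEMA3E at 8 h were the highest of the 8 and did not overlap with any other group. The difference from control was 1.44 ± 0.31 (adjusted p = 0.475 by limma), the smallest p among the members here, and it ran from 1.16 to 1.73 when single arrays were left out. Its size depended on the background correction, with 0.61 after the normexp correction and 0.30 after normexp with quantile normalization.

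Mx2, named for a dynamin-like GTPase, had levels of -6.19 and -6.52 on the control arrays and -5.45 and -5.03 after 2 h of SEMA3E. Its levels were -5.43 and -5.09 after 8 h of SEMA3E, and -6.25 and -6.23 after cytochalasin D. All 4 SEMA3E arrays lay above all control and cytochalasin D arrays. The difference at 8 h was 1.09 ± 0.28 (adjusted p = 0.665 by limma). Xaf1, which counters the caspase inhibitor XIAP, had levels of -6.30 and -6.30 on the control arrays, -6.73 and -5.62 after 2 h of SEMA3E, -5.43 and -5.44 after 8 h of SEMA3E, and -6.02 and -6.95 after cytochalasin D. Its arrays of SEMA3E at 8 h were close to each other and the highest of the 8, while the 2 arrays of SEMA3E at 2 h lay on either side of the control arrays. The difference at 8 h was 0.86 ± 0.44 (adjusted p = 0.845 by limma). Without SEMA3E 8 h replicate 2, the array with the high negative controls, the differences were 1.38 for Oasl1, 0.92 for Mx2 and 0.87 for Xaf1. With the median of all probes as scale the differences of Mx2 and Xaf1 turned to -0.07 and -0.30, as the median of all genes moved from 0.12 to -1.04.

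Rsad2, the radical SAM enzyme viperin, had levels of -4.19 and -3.58 on the control arrays, -3.53 and -5.42 after 2 h of SEMA3E, -2.94 and -3.11 after 8 h of SEMA3E, and -3.58 and -3.71 after cytochalasin D. The arrays of SEMA3E at 8 h were the highest of the 8, and SEMA3E 2 h replicate 2, where its spot lay in the patch, was the lowest. The difference at 8 h was 0.86 ± 0.57 (adjusted p = 0.879 by limma), with a standard error that includes the patch. The IFIT genes, whose products bind foreign RNA, differed by 0.13 ± 0.33 for Ifit2 and 0.17 ± 0.77 for Ifit3. The 4 tested RNA sensors had differences of 0.02 (Ifih1, which encodes MDA5), 0.04 (Ddx58, RIG-I), 0.15 (Dhx58, LGP2) and 0.17 (Eif2ak2, the kinase PKR), each smaller than its standard error.

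On the negative side, Socs1, which inhibits JAK kinases, had levels of -3.63 and -4.46 on the control arrays, -4.07 and -4.13 after 2 h of SEMA3E, -4.49 and -4.55 after 8 h of SEMA3E, and -4.14 and -3.59 after cytochalasin D. Both arrays of SEMA3E at 8 h lay just below the lower control array, and the 2 control arrays were further apart than these groups. The difference was -0.48 ± 0.35 (adjusted p = 0.884 by limma). Trim25 had levels of 3.34 and 3.25 on the control arrays, 3.34 and 3.41 after 2 h of SEMA3E, 2.87 and 3.11 after 8 h of SEMA3E, and 3.20 and 3.63 after cytochalasin D by its used probe. The arrays of SEMA3E at 8 h were the 2 lowest. The difference was -0.31 ± 0.27 (adjusted p = 0.901 by limma), and it was 0.08 when both probes were averaged.

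**Figure D3:**
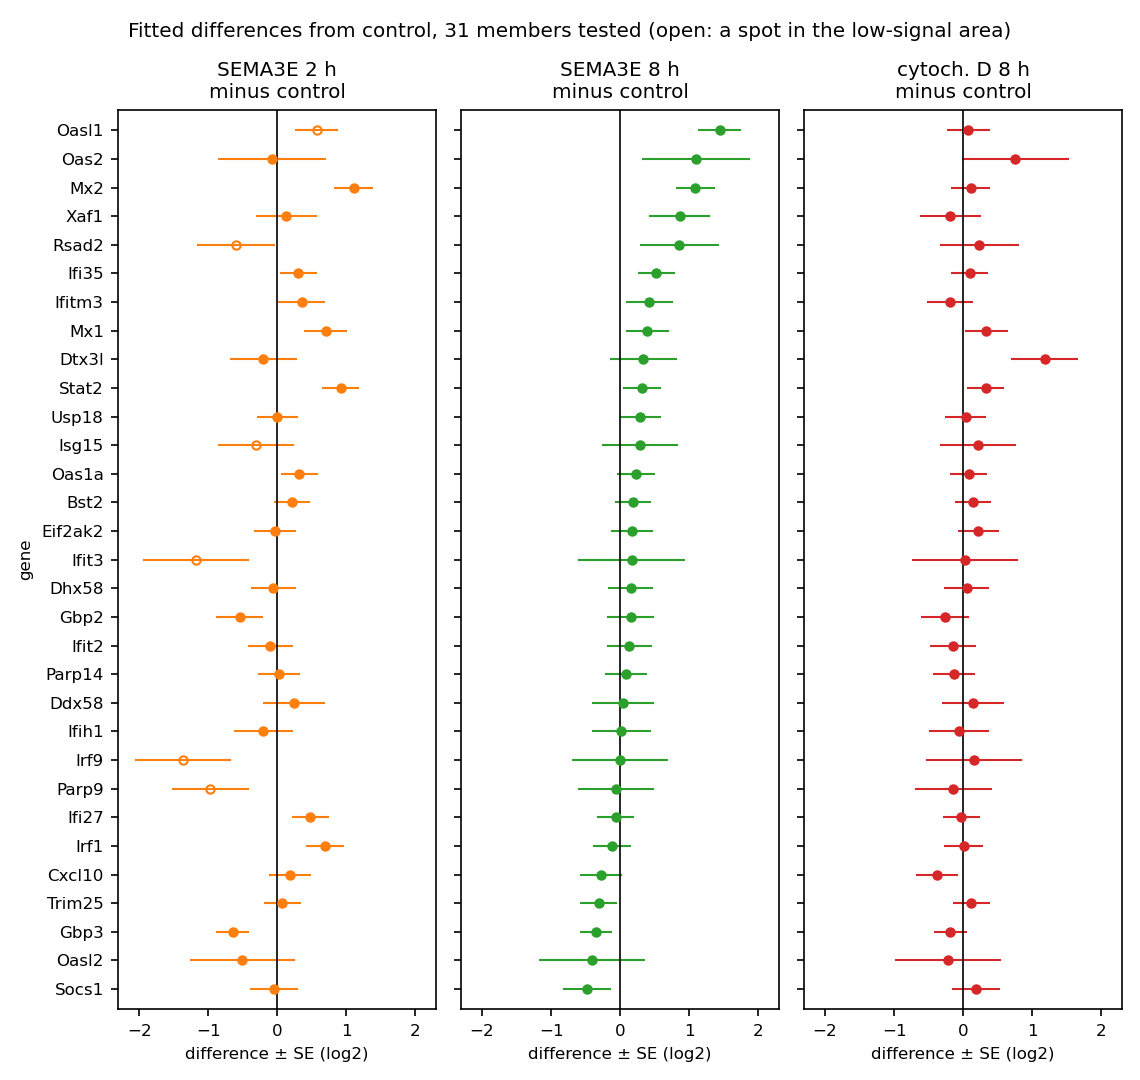
Fitted difference from control (log2 ± SE) of the 31 tested members at 2 h of SEMA3E, at 8 h of it and with cytochalasin D, ordered by the difference at 8 h of SEMA3E, with open points for the 6 genes in the low patch at 2 h. The values at 8 h of SEMA3E run from -0.48 (Socs1) to 1.44 (Oasl1), and 0 members were called in any of the panels.

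At 2 h of SEMA3E, the genes with the smallest p were Mx2, Stat2 and Irf1 above control and Gbp3 below it. 0 of 31 members were called (0% of all genes), and 4 had an unadjusted p under 0.05, 3 of them higher (9.68% of members against 5.58% of all genes) and 1 lower (3.23% against 3.9%). 15 members lay above 0 and 16 below, with a median difference of -0.00 log2 units against 0.06 over all genes. With the patch set to missing, 17 of 31 lay above 0 and the median was 0.10, while 26 lay above 0 after the normexp correction and 4 with the median of all probes as scale. The median over all genes was 0.05, 0.39 and -0.53 in these settings, in that order. The 2 SEMA3E arrays lay above both control arrays for 8 members (25.8%, against 24.5% of all genes) and below them for 1, Gbp3 (3.23%, against 15.2%).

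Stat2, a part of ISGF3, had levels of -2.50 and -2.72 on the control arrays, -1.79 and -1.59 after 2 h of SEMA3E, -2.45 and -2.14 after 8 h of SEMA3E, and -2.44 and -2.13 after cytochalasin D. The arrays of SEMA3E at 2 h were the 2 highest and did not overlap with another group. The difference was 0.92 ± 0.27 (adjusted p = 0.488 by limma), and 0.82 without replicate 2. After local signal trends on each array were removed it was 0.54. For Mx2 the difference was 1.11 ± 0.28 (adjusted p = 0.453 by limma), 0.90 without replicate 2 and 0.79 with local trends removed.

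Irf1, a transcription factor that responds to interferon gamma, had levels of -0.27 and -0.79 on the control arrays, 0.20 and 0.13 after 2 h of SEMA3E, -0.74 and -0.56 after 8 h of SEMA3E, and -0.43 and -0.62 after cytochalasin D. The arrays of SEMA3E at 2 h were the 2 highest. The difference was 0.70 ± 0.28 (adjusted p = 0.518 by limma), and 0.73 without replicate 2. Mx1, the second dynamin-like GTPase, had levels of -3.97 and -3.86 on the control arrays, -3.43 and -2.99 after 2 h of SEMA3E, -3.27 and -3.76 after 8 h of SEMA3E, and -3.81 and -3.35 after cytochalasin D. Its arrays of SEMA3E at 2 h lay above both control arrays, with replicate 2 the highest of the 8. The difference was 0.70 ± 0.31 (adjusted p = 0.518 by limma), 0.48 without replicate 2 and 0.31 with local trends removed.

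Gbp3, a guanylate-binding protein that acts on vacuoles of pathogens, had levels of -5.58 and -5.62 on the control arrays, -6.29 and -6.20 after 2 h of SEMA3E, -5.86 and -6.04 after 8 h of SEMA3E, and -5.74 and -5.83 after cytochalasin D. The arrays of SEMA3E at 2 h were the 2 lowest, and the control arrays were the 2 highest. The difference was -0.64 ± 0.24 (adjusted p = 0.518 by limma), and -0.69 without replicate 2. After the normexp correction its sign turned, to 0.58, in a setting where the median of all genes rose to 0.39. Oasl2 exceeded background on the 2 control arrays and on 0 arrays of SEMA3E at 2 h, and no direction is given for it: its fitted difference of -0.50 turned to 0.34 without replicate 2, and it passed as higher after the normexp correction.

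The 3 largest negative differences at 2 h were those of Irf9, Ifit3 and Parp9, whose spots lay in the patch of replicate 2. Irf9, the DNA-binding part of ISGF3, had levels of -1.83 and -1.58 on the control arrays, -1.82 and -4.30 after 2 h of SEMA3E, -1.60 and -1.80 after 8 h of SEMA3E, and -1.74 and -1.34 after cytochalasin D. Replicate 2 at 2 h was far below all other arrays, which lay close together. The difference was -1.36 ± 0.70 (adjusted p = 0.541 by limma), and -0.12 with the patch set to missing. Parp9, which pairs with the ubiquitin ligase Dtx3l, had levels of -3.59 and -3.27 on the control arrays, -3.45 and -5.34 after 2 h of SEMA3E, -3.58 and -3.40 after 8 h of SEMA3E, and -3.44 and -3.71 after cytochalasin D. Again replicate 2 at 2 h alone was low. The difference was -0.97 ± 0.55 (adjusted p = 0.572 by limma), and -0.02 with the patch set to missing.

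For Ifit3 the difference at 2 h was -1.17 ± 0.77, and 0.23 with the patch set to missing. For Rsad2 these values were -0.59 ± 0.57 and 0.35, and for Isg15 -0.30 ± 0.55 and 0.50. Oasl1 was the exception, as its level in the patch was not low, and its difference was 0.57 ± 0.31 as measured, 0.39 with the patch set to missing and 1.55 with local trends removed. Its spot on that array was not above background. Without SEMA3E 2 h replicate 1, which leaves the array with the patch as the only one of its group, Ifit3, Irf9 and Parp9 passed the test as lower (3 members and 416 genes called), whereas 0 members and 0 genes passed without replicate 2.

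**Figure D4:**
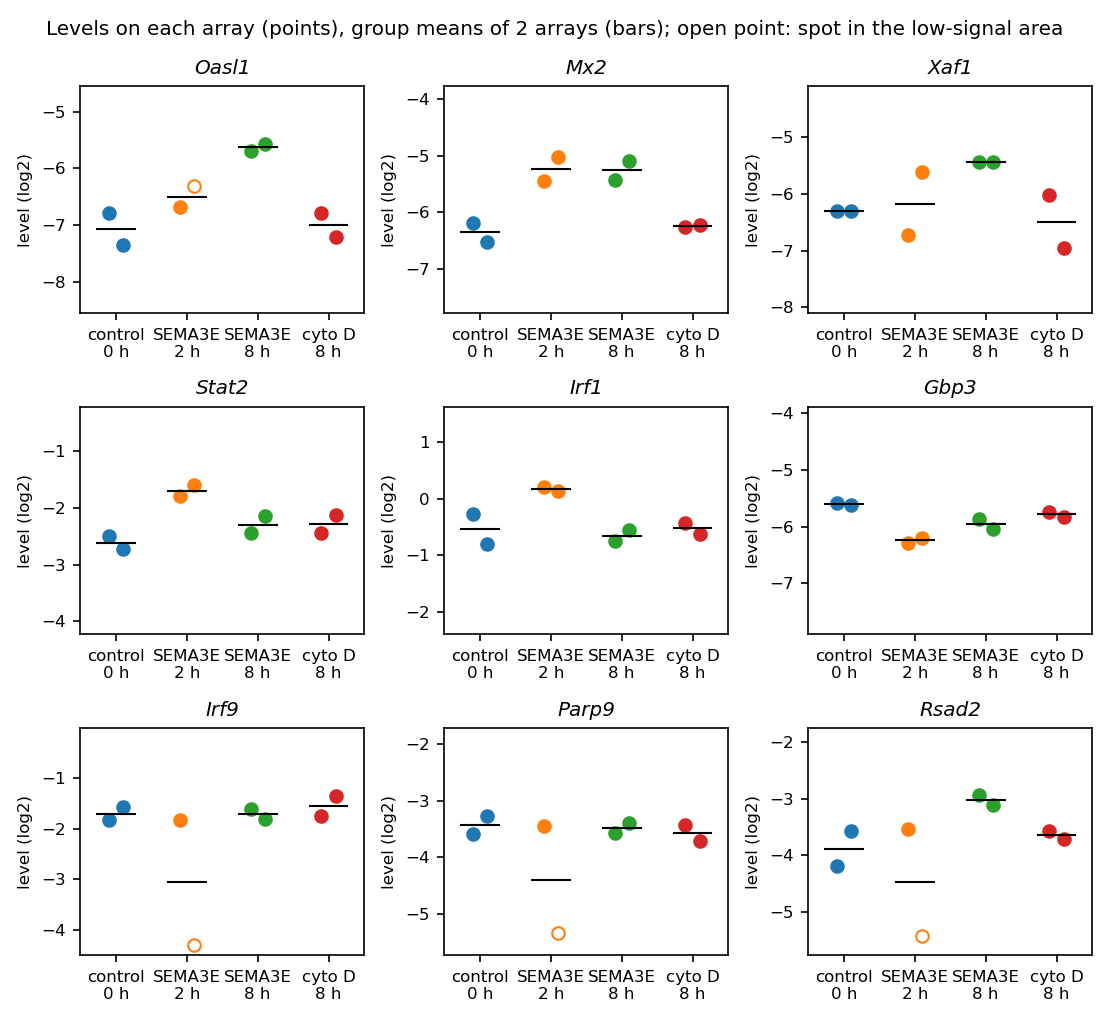
Log2 level on each array (points) and the mean of the 2 arrays of each group (bars) for 9 members. Oasl1, Mx2 and Xaf1 are highest on the arrays of SEMA3E at 8 h or at both times, Stat2 and Irf1 are highest at 2 h, and the open points, spots in the low patch of replicate 2, are far below the other arrays for Irf9, Parp9 and Rsad2.

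Cytochalasin D at 8 h was compared with the same control arrays. The genes with the smallest p were Dtx3l above control and Cxcl10 below it, and most members differed by less than their standard error. 0 of 31 members were called (0% of all genes), and 1 had an unadjusted p under 0.05, Dtx3l, which was higher (3.23% of members against 0.725% of all genes), with 0 lower (against 1.72%). 20 members lay above 0 and 11 below, with a median of 0.07 log2 units against 0.03 over all genes, while 27 lay above 0 after the normexp correction and 8 with the median of all probes as scale. In these last settings the median over all genes was 0.23 and -0.15. Both cytochalasin D arrays lay above both control arrays for 5 members (16.1%, against 15.9%) and below them for 2 (6.45%, against 13%).

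Dtx3l had levels of -3.79 and -2.59 on the control arrays, -3.50 and -3.28 after 2 h of SEMA3E, -3.14 and -2.57 after 8 h of SEMA3E, and -2.48 and -1.53 after cytochalasin D. The 2 control arrays were far apart, and cytochalasin D replicate 2 was the highest of the 8. The difference was 1.18 ± 0.49 (adjusted p = 0.9998 by limma), and it ran from 0.58 to 1.78 when single arrays were left out. Its partner Parp9 differed by -0.14 ± 0.55 and Parp14, a mono-ADP-ribosyltransferase, by -0.13 ± 0.31. Cxcl10, which attracts T cells through CXCR3, had levels of 1.70 and 1.38 on the control arrays, 2.00 and 1.45 after 2 h of SEMA3E, 1.18 and 1.36 after 8 h of SEMA3E, and 1.37 and 0.96 after cytochalasin D by its used probe. The cytochalasin D arrays lay below both control arrays, replicate 1 only just. The difference was -0.38 ± 0.31 (adjusted p = 0.9998 by limma). It was 2.01 ± 1.05 from the authors' deposited table, which holds values by gene name and not by probe.

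Stat2 and Mx1 differed by 0.32 ± 0.27 and 0.34 ± 0.31, Gbp3 by -0.18 ± 0.24 and Gbp2 by -0.26 ± 0.34 (each adjusted p = 0.9998 by limma). Gbp2 had levels of -6.00 and -5.17 on the control arrays, -5.94 and -6.33 after 2 h of SEMA3E, -5.34 and -5.54 after 8 h of SEMA3E, and -5.73 and -5.97 after cytochalasin D. Its control arrays were further apart than the means of any 2 groups, and its difference from control turned to 0.15 without control replicate 2. Oasl1, Mx2 and Xaf1 differed from control by 0.07, 0.11 and -0.19 after cytochalasin D, beside 1.44, 1.09 and 0.86 after SEMA3E for the same time, in comparisons that share the control arrays.

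Cytochalasin D and SEMA3E, both at 8 h, were then set against each other, the pair of treatments matched in time. Oasl1, Mx2 and Xaf1 were lower after cytochalasin D, and Socs1, Dtx3l and, by its used probe, Trim25 higher. None of these differences passed the test. 0 of 31 members were called (0.00553% of all genes, 1 gene), and 3 had an unadjusted p under 0.05, all lower after cytochalasin D (9.68% of members against 8.74% of all genes), with 0 higher (against 2.25%). 11 members lay above 0 and 20 below, with a median of -0.08 log2 units against -0.13 over all genes, and 20 lay above 0 after quantile normalization, 21 after the normexp correction or with the percentile over all probes, and 29 with the median of all probes as scale. In these settings the median over all genes was 0.07 (quantile), 0.11 (normexp), 0.12 (percentile) and 0.85 (median of all probes). The cytochalasin D arrays lay above both SEMA3E arrays for 4 members (12.9%, against 19.6%) and below them for 7 (22.6%, against 32.8%).

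The difference of cytochalasin D from SEMA3E was -1.37 ± 0.31 for Oasl1 (adjusted p = 0.413 by limma), -0.98 ± 0.28 for Mx2 (adjusted p = 0.413) and -1.05 ± 0.44 for Xaf1 (adjusted p = 0.453). For these 3 genes both cytochalasin D arrays lay below both SEMA3E arrays. Socs1 differed by 0.66 ± 0.35 (adjusted p = 0.502), Dtx3l by 0.85 ± 0.49 (adjusted p = 0.525) and Trim25 by 0.43 ± 0.27 (adjusted p = 0.547), all by limma. For these 3 genes, with Trim25 by its used probe, both cytochalasin D arrays lay above both SEMA3E arrays. By its second probe Trim25 differed by -0.77 ± 0.30, on the opposite side of 0. Ifitm3, which blocks virus entry at endosomes, differed by -0.61 ± 0.34 and Ifi35 by -0.43 ± 0.27, both with the cytochalasin D arrays below the SEMA3E arrays.

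Between 2 h and 8 h of SEMA3E, Irf1, Stat2 and Ifi27 were lower at the later time and Oasl1, Rsad2 and Gbp2 higher, again with no call. 0 of 31 members were called (0% of all genes), and 3 had an unadjusted p under 0.05, 2 higher at 8 h (6.45% of members against 8.26% of all genes) and 1 lower (3.23% against 3.36%). 20 members lay above 0 and 11 below, with a median of 0.21 log2 units against 0.09 over all genes. With the patch set to missing the median was 0.10, against 0.08 over all genes. After quantile normalization 11 lay above 0, with the percentile over all probes 12, after the normexp correction 8 and with the median of all probes 9. The median over all genes was -0.06, -0.17, -0.33 and -0.48 in these settings, in that order. The arrays at 8 h lay above both arrays at 2 h for 8 members (25.8%, against 27.9%) and below them for 6 (19.4%, against 22.6%).

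Irf1 differed by -0.82 ± 0.28 (adjusted p = 0.411 by limma), and by -0.85 without SEMA3E 2 h replicate 2. Stat2 differed by -0.60 ± 0.27 (adjusted p = 0.434), by -0.50 without that array and by -0.13 with local trends removed. Ifi27, a small hydrophobic protein, had levels of 1.87 and 1.49 on the control arrays, 2.29 and 2.04 after 2 h of SEMA3E, 1.72 and 1.51 after 8 h of SEMA3E, and 1.64 and 1.67 after cytochalasin D. Its arrays of SEMA3E at 2 h were the 2 highest of the 8. The difference of 8 h from 2 h was -0.55 ± 0.27 (adjusted p = 0.445 by limma), and -0.68 without SEMA3E 2 h replicate 2.

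Oasl1 differed by 0.87 ± 0.31 (adjusted p = 0.411 by limma), 1.06 with the patch set to missing and -0.09 with local trends removed. Rsad2 differed by 1.45 ± 0.57 (adjusted p = 0.418), and by 0.51 with the patch set to missing. Gbp2 differed by 0.70 ± 0.34 (adjusted p = 0.448) and by 0.50 without SEMA3E 2 h replicate 2, and the sign turned, to -0.42, after the normexp correction. Without SEMA3E 2 h replicate 1, which leaves the array with the patch, Ifit3, Irf9, Parp9 and Rsad2 passed as higher at 8 h (461 genes called), while 0 members passed without replicate 2.

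The remaining tested members had no p among the smallest of a comparison. In the 2-5A synthetase family, Oas2 had levels of -7.31 and -6.63 on the control arrays, -8.28 and -5.81 after 2 h of SEMA3E, -5.23 and -6.50 after 8 h of SEMA3E, and -6.32 and -6.10 after cytochalasin D. The 2 arrays of SEMA3E at 2 h were the lowest and the second highest of the 8, so the replicates differed by more than the groups. The difference at 8 h of SEMA3E was 1.104 ± 0.78 (adjusted p = 0.884 by limma). Oas1a differed from control by 0.32, 0.23 and 0.08 at 2 h of SEMA3E, at 8 h of it and with cytochalasin D. Usp18, which removes ISG15 from proteins, differed by -0.00, 0.29 and 0.04 in the same order, and Bst2, which tethers virus particles to the cell surface, by 0.22, 0.19 and 0.15. Ifitm3 had group means of -1.15 ± 0.27 in control, -0.80 ± 0.17 and -0.73 ± 0.37 after SEMA3E for 2 h and 8 h, and -1.34 ± 0.47 after cytochalasin D (log2, SD, n = 2 each). Ifi35 had group means of -3.43 ± 0.29, -3.12 ± 0.20, -2.90 ± 0.07 and -3.33 ± 0.09 in the same order, and both arrays of SEMA3E at 8 h were above all others.

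The rest of the pathway was read from a list of 98 further genes, of which 93 were on the array and 67 were tested. 0 of the 67 were called in any of the 5 comparisons, and their median difference was 0.13 at 2 h of SEMA3E, 0.20 at 8 h and 0.04 after cytochalasin D, against 0.06, 0.12 and 0.03 over all genes. Of 16 ligand genes on the array, 4 were tested (Ifna1, Ifna12, Ifnab and Ifnl3), and Ifnb1, Ifng and 5 others were above background on 0 arrays. Ifnl3, an interferon lambda and the only ligand above background on all arrays, differed from control by 0.38, 0.24 and 0.24 at 2 h of SEMA3E, at 8 h of it and with cytochalasin D. Ifna1 had levels of -8.61 and -7.78 on the control arrays, -7.52 and -8.14 after 2 h of SEMA3E, -7.28 and -6.23 after 8 h of SEMA3E, and -7.99 and -6.72 after cytochalasin D, and it was above background on 1 control array, 0 arrays of SEMA3E at 2 h, both at 8 h and 1 of cytochalasin D. It passed the filter only through the group where it was bright, and its fitted difference there (adjusted p = 0.772 by limma) is not given as a measured size. The interferon alpha genes are close copies of each other, so their signals may be shared, which was not tested.

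All 6 receptor genes were tested. Ifngr2, a chain of the interferon gamma receptor, had levels of -1.02 and -0.81 on the control arrays, -0.08 and -0.07 after 2 h of SEMA3E, -0.60 and -0.40 after 8 h of SEMA3E, and -0.95 and -1.13 after cytochalasin D. Its 4 SEMA3E arrays lay above all control and cytochalasin D arrays. The differences from control were 0.84 ± 0.25 at 2 h (adjusted p = 0.488) and 0.42 ± 0.25 at 8 h (adjusted p = 0.863), by limma. Ifnar1, Ifnar2, Ifngr1 and Il10rb differed from control at 8 h of SEMA3E by -0.46, 0.18, -0.49 and -0.21. Ifnlr1 was above background on 2 control arrays, 1 array of SEMA3E at 2 h, 1 at 8 h and 0 of cytochalasin D. It passed the filter only through control, so its fitted difference is not given as a measured size. Between cytochalasin D and SEMA3E at 8 h, Ifngr1 differed by 0.996 ± 0.33 (adjusted p = 0.434 by limma).

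The kinases Jak1, Jak2 and Tyk2 differed from control at 8 h of SEMA3E by 0.03, -0.12 and 1.12, and Tyk2 differed between 8 h and 2 h by 2.32 ± 0.79 (adjusted p = 0.411 by limma) with control arrays at -6.19 and -3.71. The other genes with the smallest p were Tbk1, a kinase of interferon induction, at 2 h of SEMA3E (-0.88 ± 0.35), Igtp, an immunity-related GTPase, at 8 h (0.83 ± 0.28), and Irf2 and Irf3 after cytochalasin D (-1.49 ± 0.60 and 0.52 ± 0.26). Between cytochalasin D and SEMA3E at 8 h it was Cd274, which encodes PD-L1 (-1.06 ± 0.32). Between 8 h and 2 h of SEMA3E it was Ikbke, with group means 3.64-fold apart (1.86 ± 0.47), higher at 8 h. Ikbke was above background on 0 arrays at 2 h, so this fold is neither a lower bound nor a measured size. The adjusted p by limma was 0.518, 0.732, 0.9998, 0.9998, 0.418 and 0.371 for these genes in that order.

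Markers of other cells were read beside these values. Of 13 immune cell markers 7 were tested, 5 were above background on all arrays, and Lyz2, Cd14, Fcgr1 and Klrb1c were above background on 0 arrays. The summed level of the 7 tested markers (log2) ran from -0.77 to -0.23 on the control arrays, from -0.28 to 0.20 at 2 h of SEMA3E, from -0.19 to -0.07 at 8 h and from -0.78 to -0.47 after cytochalasin D. Siglech gave most of this sum, and without it the range was -2.64 to -2.47 for control, -2.17 to -2.08 and -2.24 to -2.06 for SEMA3E at 2 h and 8 h, and -2.69 to -2.44 for cytochalasin D. The sum without Siglech was higher on all 4 SEMA3E arrays than on the other 4, as Mx2 was. Its part in the differences of the interferon response genes was not tested. Of all genes, 24.5% had both SEMA3E arrays above both control arrays at 2 h, and 25.1% at 8 h. The summed level of the 9 melanocyte markers ran from 6.69 to 6.79 on the control arrays and from 6.975 to 7.26 at 2 h of SEMA3E. It ran from 6.71 to 6.81 at 8 h and from 6.83 to 6.95 after cytochalasin D. Of 5 fibroblast markers 3 were tested, and Pdgfra and Thy1 were above background on 0 arrays.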

How the data were processed

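The authors deposited one scanner file per array, made with Agilent Feature Extraction 11.5.1.1 per the file headers, which also name genome build mm9, and the value used here is the processed intensity, background-subtracted per the file headers. A deposited table by the authors, with intensities by gene name, was used as an alternative after its values were turned to log2. The members and gene lists were chosen with earlier results of these data known.

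Each array's log2 intensity was scaled by subtracting its 75th percentile over the 18687 probes above background on all 8 arrays. Control spots and outlier spots were left out, and a probe spotted more than once took its mean. A probe was tested if it was above background on both arrays of at least 1 group (24667 of 55698 probes), and a gene took its brightest tested probe. Differences were fitted with limma 3.58.1 in R 4.3.3 (lmFit and eBayes) over all 8 arrays, with Benjamini-Hochberg adjustment over 18073 genes and a threshold of 0.05. With 2 arrays a group and 4 residual degrees of freedom, the number of arrays limits the precision, and the median SE at 8 h of SEMA3E was 0.34 log2 units. The fitting was run on simulated data with independent noise and known differences put in. These data held no patch and no array effects, so the run cannot show how such effects bear on the members. Figures were drawn with matplotlib 3.10.9.

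A member has all its array values printed if it was among the 3 smallest p above 0 or the 3 below 0 in a comparison, or had an unadjusted p under 0.05. Values of Oas2 were printed outside this rule, after they were seen. Of the other pathway genes, the receptors, JAK kinases, ligands and the 2 smallest p per comparison were named, and 1 item is not reported here. The alternatives covered scaling, normalization, background correction (normexp, offset 50), filters on dim probes, outlier spots, probe choice, probe GC content, the deposited table, an intensity trend, fits to the 4 arrays compared, the replicate number as a block and each array left out. Replicate numbers did not pair the samples (correlations of deviations from -0.15 to 0.14).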

Additional observations from a re-analysis of the deposited data

How the results depend on the processing

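No interferon response gene passed the test at 8 h of SEMA3E against control, after cytochalasin D against control or between these treatments under any alternative run. At 2 h of SEMA3E against control 4 members passed as higher after normexp (Oasl1, Oasl2, Mx2 and Xaf1, with 3473 genes called; Mx2 1.01), and the count ran from 0 to 3 when single arrays were left out; between 8 h and 2 h it ran from 0 to 4. The only other calls of members, given above, came without SEMA3E 2 h replicate 1, which leaves the array with the patch. Irf9 was then -2.60 and Parp9 -1.91 at 2 h against control, and Rsad2 2.39 between 8 h and 2 h. The cause of these shifts and of those below was not tested.

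The median member difference at 8 h of SEMA3E against control (0.17) was -0.053 with the percentile over all probes, -0.995 with the median of all probes, -0.050 after quantile normalization, -0.029 after normexp with quantile normalization and 0.055 with the GC trend removed. Over all genes tested the median was -0.095, -1.04, -0.041, -0.026 and -0.065 in the same order. Between cytochalasin D and SEMA3E the member median (-0.08) was 0.17, 0.90, 0.13, 0.049 and 0.037 under the same settings, and 0.053 after normexp. Over all genes these values were 0.12, 0.85, 0.067, 0.033, 0.073 and 0.11. Between 8 h and 2 h the member median (0.21) was -0.053, -0.36, -0.060, -0.072 and 0.050, against -0.17, -0.48, -0.063, -0.049 and -0.076 over all genes. It was -0.31 after normexp, 0.10 with the patch set to missing and 0.052 with local trends removed. Over all genes these values were -0.33, 0.078 and 0.099. The patch and local trend settings were chosen after seeing the data. At 2 h against control the member median was -0.59 with the median of all probes and 0.49 after normexp, against -0.53 and 0.39 over all genes. After cytochalasin D it was -0.11 and 0.23, against -0.15 and 0.23 over all genes. Leaving out single arrays, the member medians ran from 0.047 to 0.25 (8 h), -0.31 to 0.035 (cytochalasin D against SEMA3E), 0.042 to 0.26 (8 h against 2 h), -0.00050 to 0.18 (2 h) and 0.033 to 0.073 (cytochalasin D).

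Signs turned for named members as follows. Oasl2 at 2 h (-0.50) passed as higher after normexp and was 0.34 without SEMA3E 2 h replicate 2. After normexp, Gbp3 was 0.58 at 2 h and 0.23 after cytochalasin D, Gbp2 was 0.22 after cytochalasin D and -0.42 between 8 h and 2 h, and Oasl1 was -0.20 between 8 h and 2 h (-0.090 with local trends removed). With the median of all probes, Mx2 and Xaf1 were -0.070 and -0.30 at 8 h, and Mx2 was 0.00143 between cytochalasin D and SEMA3E. Trim25 at 8 h was 0.092 ± 1.44 from the deposited table and 0.083 ± 0.26 as the mean of its probes. Between cytochalasin D and SEMA3E it was -0.17 ± 1.44 and -0.17 ± 0.26. After cytochalasin D, Cxcl10 was 2.01 ± 1.05 from the deposited table. Gbp2 after cytochalasin D ran from -0.68 to 0.15 without single arrays, highest without control replicate 2. Leaving out 1 array turned the sign of 15 of 31 members at 8 h of SEMA3E and of 22 after cytochalasin D.

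The replicate block called 0 members in all 5 comparisons (7 genes in all at 8 h of SEMA3E, against 1 without the block). The block together with the GC trend removed gave member medians of 0.055 at 8 h, 0.037 between cytochalasin D and SEMA3E and 0.050 between 8 h and 2 h. Over all genes these medians were -0.065, 0.073 and -0.076. Replicate numbers did not pair the samples. Dim signal limits Oasl1, Oasl2 and Oas2, which were not above background on every array. Ifit3 was below that mark only on SEMA3E 2 h replicate 2, where its spot lay in the patch. Mx2 and Xaf1 were above background on all arrays but also dim. Their signals before scaling ran from 18.8 to 66.1 and from 11.3 to 63.1, beside 9.58 to 52.9 for Oasl1.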
